A study of Mus musculus with 17 samples.

Results

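Amino acids and transmitters cross membranes on carriers of a few solute carrier (SLC) families, and 62 such genes were followed here across 4 groups of mouse brain samples. The 62 are all genes of the table, out of 21640, whose symbols place them in SLC1, SLC3, SLC6, SLC7, SLC17, SLC32, SLC36 or SLC38. They were sorted by textbook role into 14 classes, which hold 5 glutamate, 2 neutral SLC1, 4 GABA, 3 glycine and proline, 3 monoamine, 2 taurine and creatine and 7 other SLC6 carriers, 6 vesicular and lysosomal carriers, 2 SLC17 phosphate carriers, 2 heavy chains, 7 exchanger light chains, 5 cationic, 3 SLC36 and 11 SLC38 carriers. A further 9 genes of the same families, among them Slc6a20, Slc7a9 and Slc36a3, were not analysed here.

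Bulk RNA-seq was measured in 17 libraries. Arteriolar smooth muscle cells (aSMCs) came as 6 libraries from adult SMACreER:Ai47 mice given tamoxifen about 1 month earlier, in which a smooth muscle actin promoter drives the recombinase that turns on EGFP, and the EGFP-positive cells were sorted from enriched cerebral vessels with CD31-positive endothelial and CD45-positive immune cells removed. A pair of aSMC libraries, numbered 7 and 8, came from tdTomato-positive cells of SMACreER:Ai14 mice, and 3 libraries came from tdTomato-positive cells of hGFAPCreER:Ai14 mice, labelled astrocytes, in which a human GFAP promoter drives the recombinase; no age was found for either in the sources used here. The reference was 6 libraries of unsorted cortex homogenate, labelled wild type. These are called Ai47 aSMCs, Ai14 aSMCs, astrocytes and cortex below.

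In the brain, glutamate released by neurons is cleared mainly by carriers of astrocytes, turned into glutamine there and handed back to neurons through glutamine carriers of the SLC38 family. GABA and glycine are recovered by sodium-driven SLC6 carriers, and vesicular carriers of SLC17 and SLC32 load the transmitters into synaptic vesicles. Outside transmission, exchangers made of a heavy chain (SLC3) and a light chain (SLC7), with SLC36 and SLC38 carriers, supply cells with amino acids for protein synthesis, and some of them sit on lysosomes, where amino acids are sensed.

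Levels are counts scaled to library size (CPM) after TMM scaling over all 17 libraries. For the groups of 6, the lowest, the median and the highest library are given in that order, and the astrocyte and Ai14 libraries are given by replicate number. Library totals were 41499087 to 53643624 counts in Ai47 aSMCs, 14870507 and 14979228 in Ai14 aSMCs, 4537137 to 7390630 in astrocytes and 5397905 to 7288036 in cortex, so that 1 count was worth 0.0364 to 0.0570, 0.0303 and 0.0304, 0.0505 to 0.127 and 0.0796 to 0.258 CPM in those groups. The mitochondrial share of counts was 0.214% to 0.559% of the counts in Ai47 aSMCs, 16.8% and 17.6% in Ai14 aSMCs, 10.7% to 12.5% in astrocytes and 35.7% to 72.9% in cortex. For sorted aSMCs and cortex the study gives as many mice as libraries, and it took the cortex control from the dissociated cortices before sorting, although the labels call it wild type. The labels tie no library to a mouse. For Ai14 aSMCs and astrocytes no source used here says whether the libraries came from separate mice. P-values there thus measure a spread between libraries, which may not be a spread between mice. They come from 1 fit of all 17 libraries, in which the 4 groups share 1 estimate of each gene's spread. The 6 Ai47 columns were close to each other in a small share of genes. Of 7997 genes with at least 10 counts in all 6, 328 (4.1%) had raw counts within 1.2-fold of each other. In cortex, where library totals were lower, 1 of 5725 genes (0.0175%) did. Among the 19 carriers with at least 10 counts in all 6, only Slc38a1 was so close, with 13576 to 15521 counts. Others spread widely, Slc7a2 from 25 to 2949 counts. Below that cut, Slc36a2 had 1 count and Slc6a4 had 2 counts in each of the 6 columns. Whether the columns are independent libraries was not tested.

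Marker genes were checked before the carriers. The 7 smooth muscle markers summed to 4943 to 6538 CPM in Ai47 aSMCs, 7243 and 7766 in Ai14 aSMCs, 38.1 to 87.9 in astrocytes and 24.1 to 117 in cortex. The 7 astrocyte markers summed to 1181 to 1889 CPM in Ai47 aSMCs, 30.7 and 65.0 in Ai14 aSMCs, 1052 to 1297 in astrocytes and 252 to 1414 in cortex. In Ai47 aSMCs this sum was nearly all Gja1, which encodes connexin 43 (mean 1093 CPM), and Sox9 (342 CPM), while the defining markers Gfap, Aldoc and Aqp4 averaged 0.0569, 0.0739 and 0.596 CPM. The astrocyte libraries also held 5 ependymal and choroid plexus markers at 386 to 2165 CPM in sum, among them Foxj1 at a mean of 340 CPM and Ttr at 652 CPM, against 13.2 to 1687 CPM in cortex. The 6 pericyte markers summed to 2618 to 5683 CPM in Ai47 aSMCs, 6928 and 10126 in Ai14 aSMCs, 8.90 to 17.6 in astrocytes and 255 to 713 in cortex. Of the 5 tested between Ai47 aSMCs and cortex, 3 were higher and 1 lower, where 33.6% and 25% of all genes were. The 5 fibroblast markers summed to 1531 to 2365 CPM in Ai47 aSMCs, 78.7 and 122 in Ai14 aSMCs, 0.960 to 7.58 in astrocytes and 14.6 to 37.9 in cortex. In Ai47 aSMCs the fibroblast sum was mostly the collagen gene Col1a1 (mean 1739 CPM, against 2.003 in Ai14 aSMCs), while Pdgfra had no counts and Lum averaged 0.00873 CPM. Like this sum, some carriers were higher in Ai47 aSMCs than in all other groups, Slc3a2 and Slc38a9 among them. The part of fibroblasts in their levels was not tested. Red blood cell markers reached 4958 CPM in the highest cortex library.

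The carriers as a whole took 1773 to 2458 CPM in Ai47 aSMCs, 1340 and 1511 in Ai14 aSMCs, 1294 to 2870 in astrocytes and 3953 to 18036 in cortex. Which class held that sum differed widely, as the plot of summed levels by class shows. Glutamate carriers made up 0.375% of the mean sum in Ai47 aSMCs, 11.7% in Ai14 aSMCs, 22.8% in astrocytes and 91.7% in cortex, nearly all of it Slc1a2. SLC38 carriers made up 74.9%, 39.4% and 50.5% of it in Ai47 aSMCs, Ai14 aSMCs and astrocytes, against 1.49% in cortex.

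**Figure D1:**
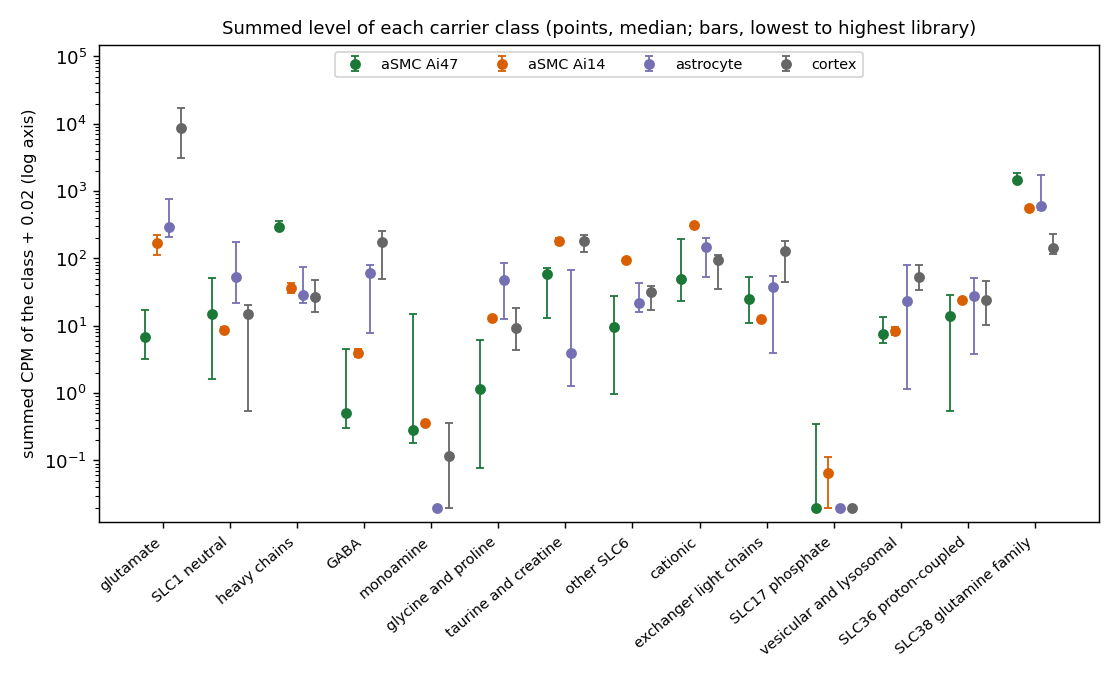
Summed CPM of each of the 14 carrier classes, on a log axis after adding 0.02 CPM, in Ai47 aSMCs (6 libraries), Ai14 aSMCs (2), astrocytes (3) and cortex (6). Points are medians and bars run from the lowest to the highest library; the glutamate class is highest in cortex (median 8723 CPM, against 6.77 in Ai47 aSMCs), and the SLC38 class in Ai47 aSMCs (median 1461 CPM, against 144 in cortex).

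No counts at all were found for 11 of the 62 genes in Ai47 aSMCs, 11 in Ai14 aSMCs, 23 in astrocytes and 9 in cortex, and Slc6a14, Slc6a16 and Slc17a2 had none in any library. Ordered by mean CPM per kilobase of exon, the 5 highest carriers of Ai47 aSMCs were Slc3a2 (85.2), Slc38a2 (57.4), Slc38a1 (37.5), Slc38a6 (17.1) and Slc38a9 (11.4). Ai14 aSMCs were led by Slc38a11 (38.2), Slc7a2 (30.6), Slc38a2 (23.8), Slc38a6 (18.4) and Slc6a6 (17.2). Astrocytes were led by Slc38a1 (40.4), Slc1a2 (24.7), Slc1a4 (21.3), Slc38a2 (20.4) and Slc7a2 (13.7), and cortex by Slc1a2 (701), Slc1a3 (35.5), Slc6a6 (17.9), Slc6a11 (16.0) and Slc7a5 (12.9).

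Groups were compared with edgeR's quasi-likelihood test across all genes, and a gene was called at a Benjamini-Hochberg adjusted p under 0.05. Ai47 aSMCs and cortex were fitted on their own 12 libraries, and the other 4 comparisons in 1 fit of all 17. Between Ai47 aSMCs and cortex, 31 of the 62 genes passed the filter on low counts. Of these, 10 were higher in Ai47 aSMCs, where 33.6% of all 11548 genes tested were higher, and 13 were lower, where 25% of all genes were lower. The median log2 fold change of the 31 was -1.17, beside 0.32 for all genes. The plot of fold changes shows 30 of them by class.

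**Figure D2:**
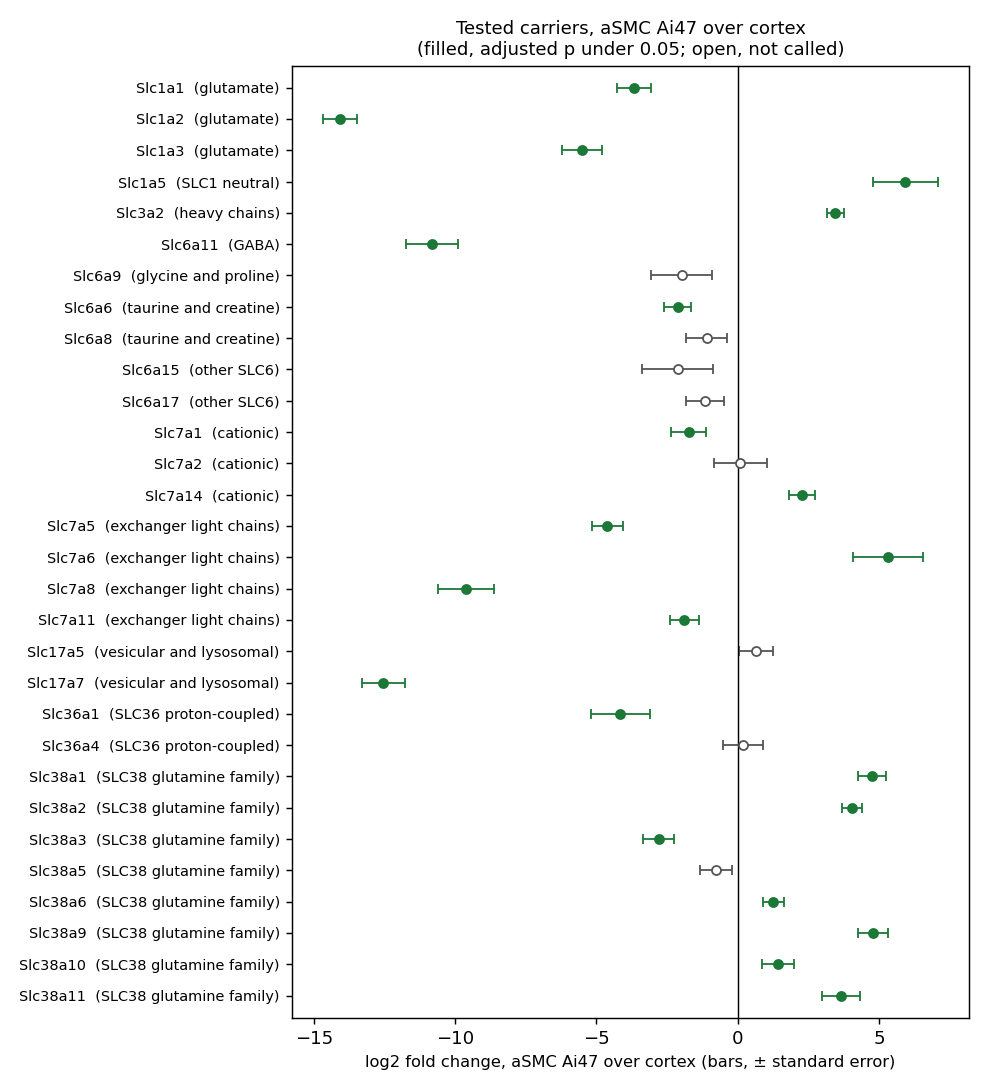
Fitted log2 fold change of 30 tested carriers, Ai47 aSMCs over cortex (6 libraries each), with the standard error as bars; filled points are the 22 called genes and open points the 8 that were not called. Slc1a2 (-14.06) lies farthest to the left and Slc1a5 (5.93) farthest to the right; Slc17a7 has no counts in Ai47 aSMCs, so its fitted value of -12.55 depends on the fit and is no bound.

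The glutamate carriers of the plasma membrane were far below cortex in the aSMCs. Slc1a2, the main carrier that clears glutamate into astrocytes (chr2:102658659-102790784, GRCm38, GENCODE M21), was at 0.255, 0.431 and 0.838 CPM in Ai47 aSMCs, 102 and 214 in Ai14 aSMCs, 216, 627 and 129 in astrocytes and 3019, 8465 and 16471 in cortex. All 4 groups were apart except Ai14 aSMCs and astrocytes, which overlapped. Its log2 fold change was -14.06 ± 0.60 (SE) in Ai47 aSMCs over cortex (adjusted p = 2.47e-11) and -4.83 ± 0.69 in astrocytes over cortex (adjusted p = 4.91e-05), so that the sorted astrocytes too stood below the unsorted tissue. In a bulk sample, fewer cells of a type and less RNA per cell cannot be told apart.

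Slc1a3, the second astrocyte carrier for glutamate, was at 0.210, 5.53 and 16.4 CPM in Ai47 aSMCs, 9.89 and 7.06 in Ai14 aSMCs, 78.4, 150.4 and 81.1 in astrocytes and 121, 244 and 574 in cortex. Both aSMC groups lay below every astrocyte and cortex library. The log2 fold change was -5.51 ± 0.72 in Ai47 aSMCs over cortex (adjusted p = 5.67e-06) and -5.16 ± 1.21 in Ai14 aSMCs over cortex (adjusted p = 0.012). The Ai14 call was lost without Ai14 replicate 7 (-5.57) and without replicate 8 (-5.14). Astrocytes and cortex overlapped, and their difference of -1.55 ± 0.81 did not pass (adjusted p = 0.14).

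Slc1a1, the carrier that neurons use, was at 0.473, 0.734 and 1.52 CPM in Ai47 aSMCs, 0.396 and 0.242 in Ai14 aSMCs, 0, 0.381 and 0 in astrocytes and 7.23, 11.6 and 19.1 in cortex. All cortex libraries stood above all sorted ones. Ai47 aSMCs were lower than cortex by a log2 fold change of -3.67 ± 0.59 (adjusted p = 5.15e-05). Astrocytes held only 3 counts of it, which put cortex 150-fold higher with a 95% counting interval of 51.1 to 731. The other glutamate carriers, Slc1a6 of cerebellar Purkinje cells and Slc1a7 of the retina, had at most 31 counts in any group.

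Of the 3 glutamate carriers tested, Slc1a2 alone was called between the aSMC groups. Ai14 aSMCs held 3359 and 7060 raw counts of Slc1a2, against 7 to 16 in Ai47 aSMCs, and the fitted difference was -8.35 ± 0.64 (Ai47 over Ai14, adjusted p = 1.76e-08). Beside this, the 8 neuron markers summed to 0.323 to 42.2 CPM in Ai47 aSMCs and to 20.7 and 24.4 in Ai14 aSMCs, and the 6 oligodendrocyte markers to 1.64 to 2.74 and to 162 and 238. The 7 astrocyte markers summed to 1181 to 1889 CPM in Ai47 aSMCs and to 30.7 and 65.0 in Ai14 aSMCs. Of these 7, 2 were called higher and 3 lower in Ai47 than in Ai14 aSMCs. Against the sum, Aldoc averaged 0.0739 CPM in Ai47 aSMCs and 11.2 in Ai14 aSMCs, and Aqp4 0.596 and 14.04. The part of other cells in the Slc1a2 signal was not tested.

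Among the GABA carriers, Slc6a11, which astrocytes use (GAT-3), was at 0, 0 and 0.182 CPM in Ai47 aSMCs, 1.37 and 2.36 in Ai14 aSMCs, 7.30, 8.63 and 0.758 in astrocytes and 29.3, 85.3 and 134 in cortex. All of its 5 counts in Ai47 aSMCs came from 1 library. It was called lower than cortex in all 3 sorted groups, by -10.81 ± 0.93, -5.43 ± 1.46 and -3.87 ± 1.11 in Ai47 aSMCs, Ai14 aSMCs and astrocytes (adjusted p = 4.99e-08, 0.030 and 0.011). The Ai14 call was lost without either Ai14 library (-5.25 and -6.09) and without cortex replicate 2 (-5.48). Slc6a12 and Slc6a13, which in mice carry GABA and betaine mainly outside the parenchyma, had at most 14 counts in any group.

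The glycine carrier Slc6a9 (GlyT1), which glia use, was at 0, 1.15 and 6.19 CPM in Ai47 aSMCs, 11.96 and 13.3 in Ai14 aSMCs, 84.7, 12.7 and 47.3 in astrocytes and 0.396, 7.495 and 18.6 in cortex. Ai47 aSMCs lay below every astrocyte library (-4.51 ± 1.18, adjusted p = 0.0039) and overlapped cortex (-1.99 ± 1.07, adjusted p = 0.12). The neuronal glycine carrier Slc6a5 had 22 counts in Ai14 aSMCs, 2 in Ai47 aSMCs and none in the other groups. The proline carrier Slc6a7 had no counts in Ai47 aSMCs and astrocytes, and 0, 0.199 and 7.51 CPM in cortex, the highest being replicate 4.

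Monoamine carriers were near the floor. Slc6a3, the dopamine carrier, was at 14.9 CPM in Ai47 replicate 2 and at 0.0728 to 0.105 CPM in the other 5 Ai47 libraries, had no counts in Ai14 aSMCs or astrocytes, and had 2 counts in cortex. The noradrenaline carrier Slc6a2 and the serotonin carrier Slc6a4 had at most 15 counts in any group.

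Slc17a7, which loads glutamate into the vesicles of cortical neurons (VGLUT1), was at 0 CPM in all 6 Ai47 libraries, 0.609 and 1.0003 in Ai14 aSMCs, 0, 0 and 0.0505 in astrocytes and 31.2, 47.7 and 71.6 in cortex. Set against a floor of 3 counts over the group, it was at least 2315-fold lower in Ai47 aSMCs than in cortex and at least 37.7-fold lower in Ai47 than in Ai14 aSMCs. The 1 astrocyte count put cortex 1784-fold higher, with a counting interval of 319.8 to 70485. Slc32a1, which loads GABA and glycine, was at 0 CPM in Ai47 aSMCs and in astrocytes, 0 and 0.0606 in Ai14 aSMCs and 0.258, 1.14 and 1.98 in cortex, at least 50.1-fold lower in Ai47 aSMCs and at least 13.7-fold lower in astrocytes. It was too low in the 12 libraries for the fit, and an exact two-sided permutation test of Ai47 aSMCs against cortex gave p = 0.0022, unadjusted and the smallest that 6 libraries against 6 allow; the test was run for all 62 carriers and is given only for those the fit left out.

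Another vesicular glutamate carrier, Slc17a8 (VGLUT3), was at 0.243, 0.586 and 0.995 CPM in Ai47 aSMCs, 0.0304 and 0.121 in Ai14 aSMCs, 0, 0 and 0.859 in astrocytes and 0, 0.0796 and 0.250 in cortex. At 81 counts over the 6 Ai47 libraries it was also below the filter, and the same exact permutation test gave p = 0.0022 with Ai47 aSMCs higher by 0.73 on the log2(CPM + 0.5) scale, CPM being scaled over the 12 libraries. On the scale of all 17, the lowest Ai47 library (0.243 CPM) lay just under the highest cortex library (0.250 CPM). Slc17a6 (VGLUT2) had 20 counts in cortex, 2 in Ai14 aSMCs and none in Ai47 aSMCs or astrocytes. Slc17a5, the sialin of lysosomes, was at 5.07, 6.81 and 13.2 CPM in Ai47 aSMCs, 9.01 and 6.03 in Ai14 aSMCs, 23.2, 1.14 and 78.7 in astrocytes and 1.62, 4.03 and 11.6 in cortex. Its call in astrocytes over cortex (2.75 ± 0.88, adjusted p = 0.021) rested on astrocyte replicate 3, without which it was 1.01 and not called, and was also lost without any 1 of cortex replicates 1 to 4 (2.27 to 2.51).

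**Figure D3:**
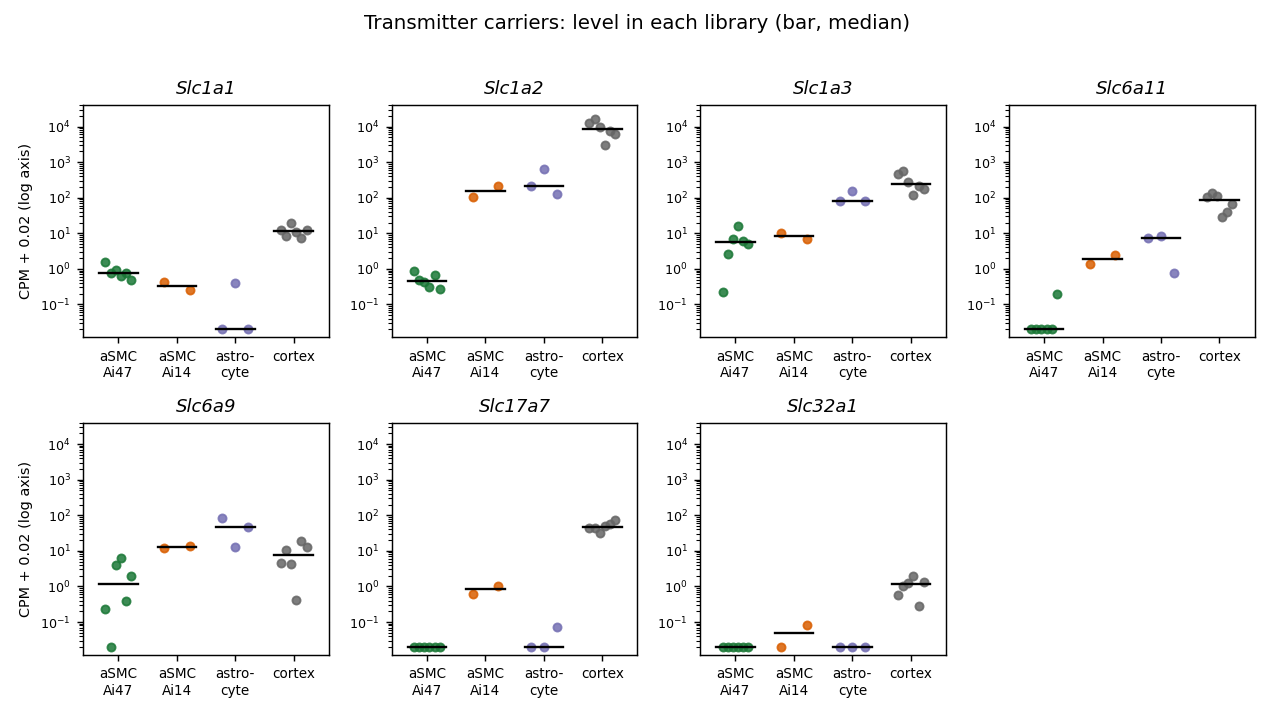
CPM of 7 transmitter carriers in each library, on a log axis after adding 0.02 CPM, with the group median as a bar, for Ai47 aSMCs (6 points), Ai14 aSMCs (2), astrocytes (3) and cortex (6). Slc1a2 runs between 0.255 and 0.838 CPM in Ai47 aSMCs and between 3019 and 16471 CPM in cortex, and Slc17a7 and Slc32a1 have no counts in any Ai47 library.

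The neutral SLC1 carriers went opposite ways in the sorted groups. Slc1a5 (ASCT2), which exchanges glutamine for other neutral amino acids in many growing cells, was at 1.42, 14.7 and 50.5 CPM in Ai47 aSMCs, 5.94 and 6.91 in Ai14 aSMCs, 0, 0 and 0.0505 in astrocytes and 0, 0.0624 and 0.955 in cortex. Every aSMC library lay above every astrocyte and cortex library. The log2 fold change was 5.93 ± 1.14 in Ai47 aSMCs over cortex (adjusted p = 0.00029), and the call in Ai14 aSMCs over cortex (4.25 ± 1.254, adjusted p = 0.047) was lost when any 1 of the Ai14 or cortex libraries was left out (3.90 to 4.85).

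Slc1a4 (ASCT1), a serine and alanine carrier of astrocytes, had the other pattern, with 0.0728, 0.101 and 0.171 CPM in Ai47 aSMCs, 3.68 and 1.03 in Ai14 aSMCs, 21.4, 175 and 53.4 in astrocytes and 0.517, 14.7 and 19.2 in cortex. Each astrocyte library lay above each cortex library (2.85 ± 0.84, adjusted p = 0.013), a call that was lost without astrocyte replicate 2 (1.60). Ai47 aSMCs were lower than astrocytes, with a log2 fold change of -9.46 ± 1.06 (adjusted p = 7.72e-07) and, by the exact permutation test, lower than cortex (p = 0.0022).

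Slc3a2 (4F2hc, CD98), the heavy chain that brings several light chains to the plasma membrane, was the carrier with the highest level per kilobase in Ai47 aSMCs. It was at 261, 293 and 359.6 CPM in Ai47 aSMCs, 30.7 and 42.5 in Ai14 aSMCs, 24.7, 21.6 and 75.2 in astrocytes and 16.1, 27.1 and 47.3 in cortex. Ai47 aSMCs stood above all other libraries, and the other 3 groups overlapped. The log2 fold change was 3.46 ± 0.30 over cortex, 2.89 ± 0.56 over astrocytes and 3.04 ± 0.68 over Ai14 aSMCs (adjusted p = 4.76e-08, 0.00034 and 0.0028). With library totals alone as the scale, the differences from astrocytes (0.55) and from Ai14 aSMCs (0.82) were not called. Slc3a1, the heavy chain of kidney and gut, was above 1 CPM only in Ai47 replicate 4 (4.24 CPM) and astrocyte replicate 1 (4.12 CPM).

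Of the 7 light chains, those that take up large neutral amino acids at the blood-brain barrier were low in aSMCs. Slc7a5 (LAT1) was at 1.06, 1.56 and 2.85 CPM in Ai47 aSMCs, 2.89 and 3.12 in Ai14 aSMCs, 0.0936, 1.01 and 30.9 in astrocytes and 11.6, 44.7 and 81.9 in cortex. It was lower in Ai47 aSMCs than in cortex by -4.61 ± 0.54 (adjusted p = 1.67e-06). The call against astrocytes (-2.59 ± 0.95, adjusted p = 0.029) was kept in only 7 of 20 alternatives. This difference turned to 1.91 without astrocyte replicate 3, and its call was lost without any 1 Ai47 library (-2.31 to -2.02). Beside Slc7a5, the 7 endothelial markers summed to 90.8 to 199 CPM in Ai47 aSMCs, 275 and 302 in Ai14 aSMCs, 515 to 1256 in astrocytes and 303.5 to 1095 in cortex. In astrocytes 6 of these 7 markers were lower than cortex and only the glucose carrier Slc2a1 was higher, at a mean of 947 CPM. Their part in the Slc7a5 level was not tested.

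Slc7a8 (LAT2) was at 0, 0 and 0.0809 CPM in Ai47 aSMCs, 2.04 and 1.303 in Ai14 aSMCs, 7.02, 0 and 0 in astrocytes and 11.1, 18.0 and 49.0 in cortex. With 3 counts in Ai47 aSMCs, cortex was 1002-fold higher (counting interval 342 to 4867). Slc7a6 (y+LAT2), which exchanges cationic for neutral amino acids, was at 0.210, 11.5 and 41.4 CPM in Ai47 aSMCs, 1.80 and 2.61 in Ai14 aSMCs, 0 in all 3 astrocyte libraries and 0, 0.193 and 1.254 in cortex. It was called higher in Ai47 aSMCs than in cortex (5.31 ± 1.24, adjusted p = 0.0015) although Ai47 replicates 1 and 3 lay within the range of cortex, and it was at least 184-fold higher in Ai47 aSMCs than in astrocytes.

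Slc7a11 (xCT), which imports cystine in exchange for glutamate and feeds glutathione synthesis, was at 7.35, 9.72 and 18.2 CPM in Ai47 aSMCs, 2.19 and 3.27 in Ai14 aSMCs, 30.3, 2.41 and 23.3 in astrocytes and 13.2, 34.0 and 118 in cortex. Ai47 aSMCs overlapped cortex and were lower by -1.89 ± 0.52 (adjusted p = 0.0048). Ai14 aSMCs lay below every cortex library (-4.08 ± 1.16, adjusted p = 0.039), a call that was lost without either Ai14 library (-3.94 and -4.58) and without cortex replicate 1 or 2 (-4.18 and -3.79). Slc7a7, Slc7a10 and Slc7a13, the other light chains, averaged at most 3.01 CPM in any group, the highest being Slc7a7 in Ai14 aSMCs.

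Slc7a11 and Slc1a4 belong to the genes whose promoters hold the letters TGATGNAA or their reverse complement TTNCATCA, the core that amino acid response factors such as ATF4 read. Their promoter windows, from 250 bases before to 50 after the start of transcription, are shown 5′ to 3′ on the strand of the gene. Both genes are described above by library. Slc7a7, which like Slc7a11 holds 2 matches in 1 window, and Slc6a21, which holds 1, are not shown. The capitals mark the matches.
Slc7a11 (chr3:50443564-50443863, minus strand): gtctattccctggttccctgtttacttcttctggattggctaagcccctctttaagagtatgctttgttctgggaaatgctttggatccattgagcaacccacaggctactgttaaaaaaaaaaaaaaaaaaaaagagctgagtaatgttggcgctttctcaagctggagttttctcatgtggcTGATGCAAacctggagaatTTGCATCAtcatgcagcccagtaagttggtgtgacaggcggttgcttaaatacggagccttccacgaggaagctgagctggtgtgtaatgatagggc
Slc1a4 (chr11:20332664-20332963, minus strand): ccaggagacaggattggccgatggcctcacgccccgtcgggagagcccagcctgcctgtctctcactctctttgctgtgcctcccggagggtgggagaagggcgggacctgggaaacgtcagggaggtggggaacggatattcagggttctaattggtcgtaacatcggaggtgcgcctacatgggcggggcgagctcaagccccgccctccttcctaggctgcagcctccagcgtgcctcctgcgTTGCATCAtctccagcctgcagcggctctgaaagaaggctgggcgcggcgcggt
Sequences and starts are those of RefSeq on GRCm38.p6. The Slc7a11 matches begin 66 and 47 bases before the start, and the Slc1a4 match lies across it. Among the 45 carriers with a window, 4 had a match on either strand (8.89%), beside 4.51% of all 27025 genes with a window. The letters are a description of these windows and not evidence of binding.

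Slc7a2 (CAT2), which brings in arginine and lysine, was at 1.01, 11.7 and 155 CPM in Ai47 aSMCs, 278 and 282 in Ai14 aSMCs, 145, 39.7 and 192 in astrocytes and 11.5, 39.3 and 63.4 in cortex. Ai14 aSMCs stood above all other libraries. Neither the difference from cortex (2.82 ± 1.09, adjusted p = 0.145) nor that of Ai47 from Ai14 aSMCs (-2.97 ± 1.09, adjusted p = 0.0504) passed. Both tests used the spread shared by all 4 groups, which takes in the wide Ai47 range. Slc7a1 (CAT1), the arginine carrier found in most cells, was at 4.27, 9.78 and 19.6 CPM in Ai47 aSMCs, 22.7 and 25.6 in Ai14 aSMCs, 0, 0.127 and 2.17 in astrocytes and 4.91, 33.3 and 97.5 in cortex. Astrocytes lay below all others, by -5.57 ± 1.31 against cortex (adjusted p = 0.0031). The call in Ai47 aSMCs over cortex (-1.74 ± 0.61, adjusted p = 0.021) was lost without cortex replicate 4 (-1.04).

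Slc7a14, a member of the same branch found on lysosomes, was at 15.6, 21.8 and 33.1 CPM in Ai47 aSMCs, 4.20 and 5.52 in Ai14 aSMCs, 4.03, 13.95 and 2.22 in astrocytes and 2.75, 4.80 and 7.96 in cortex. Ai47 aSMCs lay above all other libraries (2.29 ± 0.46 over cortex, adjusted p = 0.00045), although with library totals alone as the scale this was 0.67 and not called. Slc7a3 and Slc7a4 averaged at most 1.02 CPM in any group.

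Among the SLC38 carriers, 6 of the 8 tested were higher in Ai47 aSMCs than in cortex, where 33.6% of all genes were, and Slc38a3 was lower, with the directions of all but Slc38a6 the same under each scaling. Slc38a1 (SNAT1), a sodium-driven glutamine carrier of neurons, was at 535, 628 and 826 CPM in Ai47 aSMCs, 35.9 and 11.4 in Ai14 aSMCs, 346, 1483 and 262 in astrocytes and 11.2, 18.3 and 60.2 in cortex. Ai47 aSMCs and astrocytes overlapped, and both stood above every Ai14 and cortex library. The log2 fold change over cortex was 4.74 ± 0.49 in Ai47 aSMCs and 4.82 ± 0.61 in astrocytes (adjusted p = 4.04e-07 and 1.57e-05), and over Ai14 aSMCs it was 4.77 ± 0.95 in Ai47 aSMCs (adjusted p = 0.0010).

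Slc38a2 (SNAT2), the neutral amino acid carrier that cells raise when amino acids are scarce, lies next to Slc38a1 on chromosome 15 (chr15:96687392-96699730, GRCm38). It was at 419, 491 and 631 CPM in Ai47 aSMCs, 173 and 247 in Ai14 aSMCs, 83.0, 183 and 274 in astrocytes and 13.9, 30.5 and 55.2 in cortex. Every sorted library stood above every cortex library. The log2 fold change over cortex was 4.05 ± 0.35 in Ai47 aSMCs, 2.69 ± 0.49 in Ai14 aSMCs and 2.47 ± 0.45 in astrocytes (adjusted p = 5.03e-08, 0.0015 and 0.00039), and the middle call was lost without Ai14 replicate 8 (2.13). Ai47 aSMCs were higher than astrocytes by 1.49 ± 0.50 (adjusted p = 0.018), which became -0.75 with library totals alone as the scale. Slc38a4, another gene of this stretch of chromosome 15, had 59 counts in cortex, 1 in Ai47 aSMCs and none elsewhere.

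Slc38a9, a lysosomal carrier that senses arginine for the growth kinase mTORC1, was at 134, 189 and 258 CPM in Ai47 aSMCs, 5.02 and 7.15 in Ai14 aSMCs, 2.62, 0 and 0.960 in astrocytes and 0.791, 7.47 and 14.5 in cortex. Ai47 aSMCs stood far above the other 3 groups, by 4.78 ± 0.54 over cortex, 7.29 ± 1.12 over astrocytes and 4.96 ± 1.19 over Ai14 aSMCs (adjusted p = 1.14e-06, 3e-05 and 0.0046). The last call was lost without either Ai14 library (5.10 and 5.67). That call was also lost with library totals alone as the scale (2.73). Ai14 aSMCs and cortex overlapped (-0.28 ± 0.88, adjusted p = 0.92).

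Slc38a11, a less studied member of the family, was higher than cortex in both aSMC groups. Its levels were 21.3, 44.5 and 53.3 CPM in Ai47 aSMCs, 165 and 165 in Ai14 aSMCs, 0, 0 and 0.202 in astrocytes and 0.374, 3.74 and 6.13 in cortex. The groups did not overlap. It was higher than cortex by 3.65 ± 0.66 in Ai47 aSMCs and by 5.65 ± 0.86 in Ai14 aSMCs (adjusted p = 0.00016 and 0.00028), and astrocytes were lower than cortex, with a log2 fold change of -5.12 ± 1.125 (adjusted p = 0.0019).

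Slc38a3 (SNAT3), which releases glutamine from astrocytes, ran the other way. It was at 1.29, 2.11 and 3.20 CPM in Ai47 aSMCs, 2.07 and 0.576 in Ai14 aSMCs, 73.2, 28.2 and 44.9 in astrocytes and 6.20, 17.4 and 24.2 in cortex. Astrocytes lay above and aSMCs below every cortex library. Ai47 aSMCs were lower than astrocytes, with a log2 fold change of -4.50 ± 0.69 (adjusted p = 3e-05) and than cortex by -2.80 ± 0.54 (adjusted p = 0.00029), while astrocytes over cortex gave 1.54 ± 0.66 and did not pass (adjusted p = 0.076). Its close relative Slc38a5 (SNAT5) was at 1.27, 1.80 and 2.88 CPM in Ai47 aSMCs, 0.0913 and 0 in Ai14 aSMCs, 0 in astrocytes and 1.87, 4.07 and 4.86 in cortex.

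Slc38a6 was at 91.4, 113 and 237 CPM in Ai47 aSMCs, 133 and 153 in Ai14 aSMCs, 9.93, 21.6 and 25.3 in astrocytes and 36.3, 52.1 and 111 in cortex. Astrocytes lay below every other library, and Ai47 aSMCs overlapped cortex (1.26 ± 0.39, adjusted p = 0.010); with library totals alone as the scale this difference was -0.00096. Slc38a10 was at 2.17, 15.9 and 23.5 CPM in Ai47 aSMCs and 3.50, 6.60 and 8.13 in cortex, and its call (1.43 ± 0.58, adjusted p = 0.043) was lost in 13 of 23 alternatives, among them leaving out Ai47 replicate 1, 3 or 4 (1.24 to 1.37) or cortex replicate 1, 2 or 3 (1.35 to 1.52). Slc38a7, a lysosomal glutamine carrier, averaged at most 2.07 CPM in any group and Slc38a8 had 3 counts in all.

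**Figure D4:**
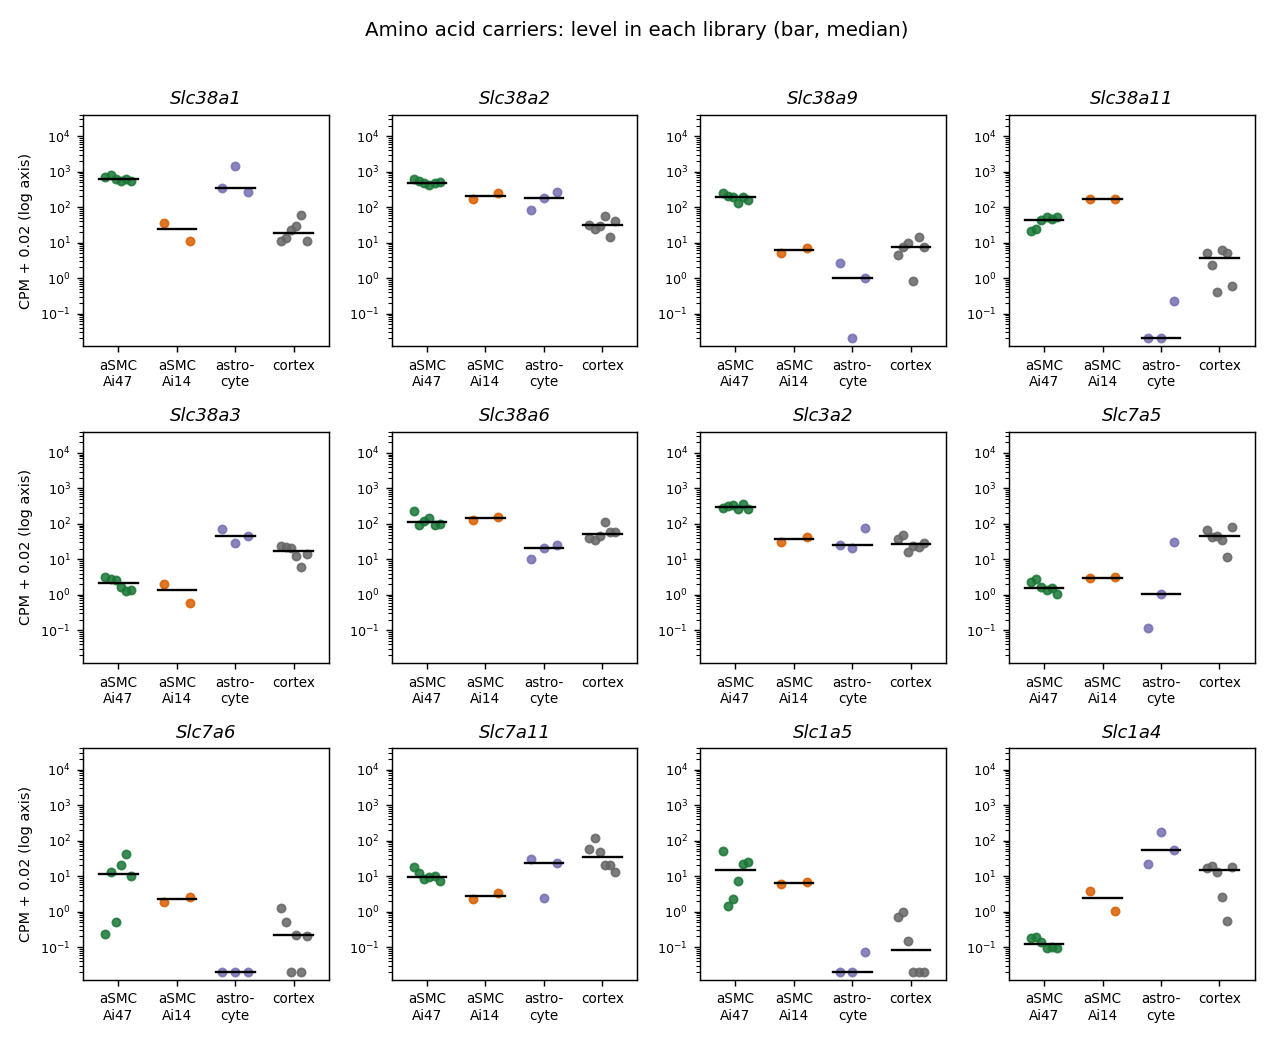
CPM of 12 amino acid carriers in each library, on a log axis after adding 0.02 CPM, with the group median as a bar, for Ai47 aSMCs (6 points), Ai14 aSMCs (2), astrocytes (3) and cortex (6). Slc38a9 lies between 134 and 258 CPM in Ai47 aSMCs and at or below 14.5 CPM in every other library; Slc38a11 is at 165 CPM in both Ai14 libraries and at or below 0.202 CPM in astrocytes.

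The taurine and creatine carriers did not follow one pattern. Slc6a6, which concentrates taurine in cells, was at 10.4, 25.6 and 70.4 CPM in Ai47 aSMCs, 159 and 131 in Ai14 aSMCs, 0.0936, 1.01 and 40.5 in astrocytes and 78.6, 164 and 209 in cortex. Ai47 aSMCs and astrocytes lay below every Ai14 and cortex library. They were lower than cortex, with a log2 fold change of -2.13 ± 0.46 and by -3.44 ± 1.14 (adjusted p = 0.00082 and 0.025), the second of which was lost without astrocyte replicate 2 (-3.07). Slc6a8, the creatine carrier, was at 1.14, 6.07 and 42.8 CPM in Ai47 aSMCs, 41.4 and 35.3 in Ai14 aSMCs, 3.84, 0.254 and 26.5 in astrocytes and 15.1, 26.7 and 54.2 in cortex, and no comparison of it passed.

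Among the other SLC6 carriers, Slc6a17, a neutral amino acid carrier of synaptic vesicles, was at 0.210, 9.17 and 27.4 CPM in Ai47 aSMCs, 89.1 and 101 in Ai14 aSMCs, 7.30, 2.66 and 26.5 in astrocytes and 12.1, 30.3 and 38.2 in cortex. Ai14 aSMCs stood above all other libraries. Ai47 were lower than Ai14 aSMCs, with a log2 fold change of -3.04 ± 0.91 (adjusted p = 0.018), a call that was lost without either Ai14 library (-2.79 and -2.55) and without Ai47 replicate 2, 3, 4 or 6 (-2.69 to -2.51). Slc6a15, a neuronal carrier for branched-chain amino acids and proline, was at 0, 0.0262 and 2.80 CPM in Ai47 aSMCs, 0.274 and 0.0909 in Ai14 aSMCs, 3.28, 6.22 and 13.4 in astrocytes and 0.756, 2.79 and 4.91 in cortex. Slc6a19, the neutral amino acid carrier of kidney and gut, had counts in all 3 astrocyte libraries (5.52, 10.3 and 2.83 CPM) and none in cortex, so that it was at least 90.2-fold higher in astrocytes, beside the ependymal and choroid plexus markers given above, whose part was not tested.

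The proton-driven SLC36 carriers differed between members. Slc36a1 (PAT1), which exports small amino acids from lysosomes, was at 0.0737, 0.118 and 3.67 CPM in Ai47 aSMCs, 1.70 and 0.879 in Ai14 aSMCs, 11.3, 3.68 and 6.72 in astrocytes and 5.14, 11.6 and 26.5 in cortex. Without overlap, Ai47 aSMCs were lower than cortex, with a log2 fold change of -4.16 ± 1.04 (adjusted p = 0.0025). Slc36a4 (PAT4) was at 0.367, 14.04 and 28.7 CPM in Ai47 aSMCs, 22.7 and 22.6 in Ai14 aSMCs, 39.8, 0.127 and 20.6 in astrocytes and 5.14, 14.8 and 20.2 in cortex, and no comparison of it passed. Slc36a2 had 6 counts in all, and the phosphate carrier Slc17a3 had 16.

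Across the other comparisons, 39 of the 62 genes were tested in each. In Ai14 aSMCs over cortex, 4 were higher (3.97% of all 14927 genes were) and 9 lower (2% of all genes were), and leaving out 1 of the 2 Ai14 libraries brought these to 1 or 2 higher and 1 lower. In astrocytes over cortex, 5 were higher (14.6% of all genes) and 12 lower (19.8%). In Ai47 aSMCs over astrocytes, 9 were higher (26.1%) and 14 lower (23.8%). In Ai47 over Ai14 aSMCs, 4 were higher (9.55%) and 7 lower (16%). Without Ai14 replicate 7 these were 3 higher and 3 lower, and without Ai14 replicate 8 they were 2 higher and 5 lower. The comparisons share libraries, cortex in 3 of them and Ai47 aSMCs in 3.

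The enzymes that make and break down the same amino acids were read from a list of 23 genes. Of the 22 tested between Ai47 aSMCs and cortex, 3 were higher and 14 lower, where 33.6% and 25% of all genes were, with a median log2 fold change of -2.61 beside 0.32 for all genes. Glul, the glutamine synthetase of astrocytes, averaged 17.2 ± 5.95 CPM in Ai47 aSMCs and 1599 ± 572 in cortex (SD, n = 6 each; log2 fold change -6.43 ± 0.35, adjusted p = 2.48e-10), with 118 CPM in Ai14 aSMCs and 216 in astrocytes. Among those higher were Csad, of taurine synthesis (4.09 ± 0.82), and Got1, the cytosolic aspartate aminotransferase (1.70 ± 0.57). Psat1, of serine synthesis, was lower by -9.02 ± 0.50, Abat, which breaks down GABA, by -7.46 ± 0.67, and Glud1, the glutamate dehydrogenase, by -5.20 ± 0.65.

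Of 10 genes of the amino acid response, 7 were tested between Ai47 aSMCs and cortex and 3 were higher, where 33.6% of all genes were, with none lower and a median of 1.07. Atf4, the transcription factor of this response, averaged 416 ± 86.9 CPM in Ai47 aSMCs and 11.02 ± 7.82 in cortex (SD, n = 6 each; 5.37 ± 0.46, adjusted p = 5.11e-08), with 51.0 CPM in Ai14 aSMCs and 8.83 in astrocytes. Cebpb (5.09 ± 0.84) and Nupr1 (2.88 ± 0.94) were the others, both at under 7 CPM in Ai47 aSMCs. Asns, Ddit3, Eif2ak4 and Vldlr did not pass, and Trib3, Chac1 and Sesn2 were below the filter.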

How the data were processed

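Raw gene counts deposited by the authors, unnormalized whole numbers for 21640 genes and 17 libraries, were used. The submitters' processing notes name Trim Galore 0.6.7, FastQC 0.11.9, MultiQC 1.13, Salmon 1.4.0 and GRCm38, whereas the study's methods name TopHat and htseq-count; the sources used here do not give which of them made the counts, nor the strand setting, so reads of overlapping genes may be shared. The study's methods list only the Ai47 aSMC and cortex samples. Every per-sample column was mapped (0 were left out).

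Levels were CPM with TMM factors over 17 libraries. edgeR 4.0.16 (R 4.3.3; filterByExpr with a minimum count of 10) fitted Ai47 aSMCs and cortex alone (11548 genes) and the other comparisons over all 17 libraries (14927 genes), with Benjamini-Hochberg adjustment over all genes and calls at 0.05. The SE is the log2 fold change divided by the root of F. For a group without counts the fold was set against 3 counts over that group, and for 1 to 3 counts the ratio has a 95% Clopper-Pearson interval; both cover counting error only. The permutation test used a pseudocount of 0.5 CPM. Fits were also run on simulated counts in which few genes were changed, as many up as down. Real groups differed in many genes, so those counts do not test the scaling between groups. Alternatives were DESeq2 1.42.0, other scalings and filters, a robust spread, other sample sets, the replicate block and leaving out mitochondrial genes or libraries. A further alternative averaged the Ai47 columns into 1 library. Other steps ran in Python 3.11.15 with pandas 2.3.3, numpy 2.4.6 and matplotlib 3.10.9. GENCODE M21 symbols matched 62 carriers and 97.5% of all genes.

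Carriers, classes and lists were chosen with earlier results of these data known. Per-library values are given for the 2 highest carriers of a class and for called carriers with a group mean of at least 10 CPM. A few others with low counts (Slc17a8, Slc32a1, Slc38a5, Slc6a3, Slc6a7, Slc6a19) were chosen after their values were seen. Some genes of the classes and lists enter the counts and sums but are not reported here singly.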

Additional observations from a re-analysis of the deposited data

Results flagged for a closer look

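Among 67 combinations of a carrier and a group of 6 libraries that were checked, 11 had 1 library far from the other 5. The rule set the gap to the next library against the range of the group. Its rate of about 1 in 20 by chance holds for normally spread values only. A carrier with counts in 1 library alone is always flagged, so that rate cannot be used to judge the 11 flagged libraries. In Ai47 aSMCs these were Slc6a3, the dopamine carrier, at 14.9 CPM in replicate 2 (next highest 0.105), Slc7a2 at 154.5 CPM in replicate 1 (next 32.7), Slc3a1 at 4.24 CPM in replicate 4 (next 0.524), Slc6a15 at 2.80 CPM in replicate 3 (next 0.513), and Slc36a1 at 3.67 CPM (next 0.162) and Slc6a11 at 0.182 CPM (next 0), both in replicate 6. In cortex they were Slc38a6 at 111 CPM in replicate 4 (next 59.9), Slc38a1 at 60.2 CPM in replicate 5 (next 29.5), Slc6a7 at 7.51 CPM in replicate 4 (next 0.684), and Slc3a1 at 0.342 CPM and Slc6a3 at 0.228 CPM, both in replicate 1 and with no counts in the others.

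Ai47 and Ai14 aSMCs, which the labels give as the same cell type, differed in 11 carriers by edgeR's test. Ai47 aSMCs were higher in Slc38a5 (log2 fold change 5.23), Slc38a9 (4.96), Slc38a1 (4.77) and Slc3a2 (3.04). They were lower in Slc1a2 (-8.35), Slc17a7 (-6.78, with no counts in Ai47 aSMCs), Slc7a8 (-5.84), Slc6a11 (-5.52), Slc1a4 (-4.32), Slc7a7 (-3.96) and Slc6a17 (-3.04). The Slc7a7 call was lost in 14 of 17 alternatives, among them leaving out any 1 of the 8 aSMC libraries (-4.07 to -2.71). Without Ai14 replicate 7, Slc1a4 (-2.77), Slc7a8 (-5.14), Slc38a9 (5.10) and Slc6a17 (-2.79) were not called, and without Ai14 replicate 8, Slc38a5 (4.74), Slc38a9 (5.67) and Slc6a17 (-2.55) were not.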

How the results depend on the processing

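In Ai47 aSMCs over cortex, 16 of the 23 called carriers kept their call and direction under all 23 alternatives, and Slc1a5 and Slc7a6 kept theirs under the 19 and 18 in which they passed the filter. With library totals alone, the median of all genes moved by -1.43 (log2), against 0.86 in Ai14 aSMCs over cortex, 0.86 in astrocytes over cortex, -2.21 in Ai47 aSMCs over astrocytes and -2.20 in Ai47 over Ai14 aSMCs, and the share of higher calls among all genes became 33.9%, 90.4%, 60.8%, 22.4% and 7.48%, against 57.3%, 66.6%, 42.4%, 52.3% and 37.3%. Of Ai14 aSMCs over cortex, that share was 49.6% with DESeq2 size factors, which moved the median by -0.50, and 23.3% in DESeq2. With only the libraries of Ai14 aSMCs and cortex it was 37.8%. In Ai47 over Ai14 aSMCs the share was 57.4% in DESeq2 and 49.1% without mitochondrial genes. Taking the Ai47 columns as 1 library leaves that group no spread of its own. It moved the median by 0.19 in Ai47 aSMCs over astrocytes and by 0.25 in Ai47 over Ai14 aSMCs. Leaving out any 1 Ai47 library moved the median of all genes there by 0.50 to 0.57 and brought the share to 48.1% to 49.4%. Leaving out any 1 cortex library moved the median in Ai14 aSMCs over cortex by -0.32 to -0.26. Calls lost in these fits were thus lost on a shifted scale as well. The cause of these changes was not tested.

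Counts of called carriers that moved by over 1.5 times were these. In Ai47 aSMCs over cortex, the 13 lower became 25 with no filter and 20 in DESeq2. In Ai14 aSMCs over cortex, the 4 higher became 2 with DESeq2 size factors, 2 with no filter, 2 at a minimum of 1 CPM and 1 to 2 with a library left out, and the 9 lower became 3 with library totals, 14 in DESeq2, 3 without cortex replicates 1 and 2 and 1 to 8 with a library left out. In astrocytes over cortex, the 12 lower became 7 with only those libraries. In Ai47 aSMCs over astrocytes, the 9 higher became 5 with library totals and 14 with no filter, and the 14 lower became 8 with only those libraries and 4 with the Ai47 columns as 1 library. In Ai47 over Ai14 aSMCs, the 4 higher became 1 with library totals, 7 in DESeq2, 8 with only those libraries, 1 with the Ai47 columns as 1 library and 2 to 4 with a library left out, and the 7 lower became 22 with library totals, 1 with the Ai47 columns as 1 library and 3 to 7 with a library left out. Leaving out a library gave 7 to 11 higher and 13 to 16 lower in Ai47 aSMCs over cortex, 4 to 5 and 11 to 14 in astrocytes over cortex, and 10 to 12 and 10 to 13 in Ai47 aSMCs over astrocytes.

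Same-numbered libraries did not deviate together (correlations of -0.0505 to 0.0323), and no source used here says that a number marks 1 mouse, although the study's text takes the cortex control from the dissociated cortices used for sorting. With the replicate block, 9 carriers were higher and 13 lower in Ai47 aSMCs over cortex, with Slc7a1 (-1.53) and Slc38a10 (1.19) no longer called, 1 and 5 in astrocytes over cortex, and 3 and 5 in Ai47 aSMCs over astrocytes. No paired analysis was possible for Ai14 aSMCs because their numbers occur in no other group.

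Directions that turned were Slc38a6 in Ai47 aSMCs over cortex (-0.00096) and Slc38a2 in Ai47 aSMCs over astrocytes (-0.75) with library totals, and, in Ai47 aSMCs over astrocytes, Slc7a5 with the block (0.92) and between -2.88 and 1.91 with a library left out, and Slc7a8 between -6.76 and 2.13. Carriers under about 1 CPM rest on few counts, 3 counts being 0.0213 CPM over Ai47 aSMCs, 0.0456 over Ai14 aSMCs, 0.0782 over astrocytes and 0.0689 over cortex.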
